A study of Mus musculus with 3 samples.

Results

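Epithelial junction and keratin genes were followed through the reprogramming intermediates of mouse tail-tip fibroblasts, which are connective tissue cells grown out of the tail. The 34 genes were chosen by name for their role, and a gene was found if a probe carried a RefSeq accession of that gene. All 34 were found among the 20825 genes that the arrays name. They were separated into 22 genes typical of simple, single-layered epithelium, 8 keratinocyte genes typical of the stratified epidermis, and 4 genes used by both kinds of epithelium.

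The cells came from 3 kinds of donor, with 1 array each. Young wild-type (WT) donors were 2 months old, old WT donors were 22 months old, and old p16-/- donors, also 22 months old, lacked the cell cycle inhibitor p16. All 3 cultures had received Oct4, Sox2, Klf4 and c-Myc, the 4 reprogramming factors. RNA was taken on day 8, so no array shows the fibroblasts before reprogramming. The design text mentions 2 independent experiments with different donors, and how many donors fed 1 array, their sex and how the factors were delivered are not given in the sources used here. With 1 array per group no test could be run and no p-value is given. Every difference is a log2 ratio of signals, in which 1 stands for a doubling.

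Fibroblasts that take up the 4 factors lose mesenchymal traits and gain epithelial ones early in reprogramming, a change called the mesenchymal-to-epithelial transition. Simple epithelia carry filaments of Krt8 paired with Krt18, seal their cells with claudins, and switch on Epcam and the splicing regulators Esrp1 and Esrp2. Keratinocytes instead build filaments of Krt5 paired with Krt14 under the control of Trp63, and hold together through desmosomes. Snail and Zeb proteins keep many of these genes silent in fibroblasts by binding E-boxes, short DNA motifs read CAGGTG.

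The 5' flanks of Krt8, Krt18 and Cldn3 are shown first because these were the 3 members that were at least 2-fold higher on the old p16-/- array than on each of the other arrays while well above background on all of them. They are the 250 bases before the start of each gene, from RefSeq on GRCm38.p6, read 5′ to 3′ on the gene's strand. Capitals mark matches, on either strand and overlaps included, to an E-box (CAGGTG), an AP-1 motif (TGANTCA), a GC box (GGGCGG), a Grhl motif (AACCGGTT) or a Klf motif (CACCC). The Krt8 window lies at chr15:102004343-102004592 on the minus strand, the Krt18 window at chr15:102027966-102028215 on the plus strand, and the Cldn3 window at chr5:134985964-134986213 on the plus strand.
Krt8: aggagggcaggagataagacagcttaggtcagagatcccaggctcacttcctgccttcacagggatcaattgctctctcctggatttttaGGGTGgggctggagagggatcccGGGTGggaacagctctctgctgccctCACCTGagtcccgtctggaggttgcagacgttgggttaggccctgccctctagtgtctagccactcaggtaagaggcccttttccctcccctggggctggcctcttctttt
Krt18: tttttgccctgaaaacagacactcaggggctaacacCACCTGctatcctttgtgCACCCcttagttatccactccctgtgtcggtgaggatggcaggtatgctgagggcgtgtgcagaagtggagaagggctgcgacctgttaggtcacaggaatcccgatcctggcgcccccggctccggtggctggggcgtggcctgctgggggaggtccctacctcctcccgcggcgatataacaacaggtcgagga
Cldn3: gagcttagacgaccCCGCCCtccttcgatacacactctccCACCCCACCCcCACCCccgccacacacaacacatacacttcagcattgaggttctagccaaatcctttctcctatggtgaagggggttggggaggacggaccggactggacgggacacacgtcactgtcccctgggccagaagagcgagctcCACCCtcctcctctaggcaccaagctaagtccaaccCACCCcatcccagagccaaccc

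Krt8 and Krt18 are neighbours that point away from each other, with 2 gene models lying wholly between them in the RefSeq table. Each of these keratin windows held 1 E-box, with its first base 111 bases before the start in Krt8 and 214 bases before it in Krt18. Klf motifs numbered 2 in the Krt8 window, 1 in the Krt18 window and 5 in the Cldn3 window, which also held 1 GC box and no E-box. Of the 34 members, 23 had a window in the table. An E-box was present in 13 of those 23, against 17.1% of the windows of 27025 genes, and a Klf motif in 18, against 51.3%. A GC box was present in 13 (32.9% of all windows), an AP-1 motif in 2 (6.87%) and the Grhl motif in 0 (0.122%). The members' windows had a median GC content of 58.4% and all windows 52.0%. The E-box was found 4 times in Ap1m2, 3 times each in Crb3 and Spint2, 2 times each in Epcam and Rab25, and 1 time each in Krt8, Krt18, Krt5, Krt7, Cldn4, Cldn6, Sfn and Tjp3. These matches describe the letters only.

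The arrays were alike in overall brightness. Between 57.4% and 61.6% of 43020 spots were well above background, the call that Agilent's software makes for a spot that clearly exceeds its surroundings, and no spot was saturated. All 13 fibroblast genes listed were above background on every array. Vim was at 215385 in young WT, 204077 in old WT and 201003 in p16-/-, and Col1a1 at 171773, 159574 and 130176. The fibroblast surface marker Thy1 was at 69467 and 52045 on the WT arrays and at 3287 on p16-/-. Cdkn2a, the gene of p16, was at 62705, 65464 and 28065, and since where its 2 probes sit relative to the deletion is not known here, it does not check the genotype. The Y-linked gene Ddx3y was above background on young WT alone (3949), and Xist on both old arrays (1548 and 1387) and not on young WT. Age and these sex-linked signals therefore cannot be told apart in a comparison with young WT. The RNA is from whole cultures, in which fewer cells of a type and less RNA per cell give the same signal.

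Of the 34 epithelial genes, 19 (55.9%) were well above background on all 3 arrays, 8 on 1 or 2 arrays and 7 on none. Among all genes the share on all 3 arrays was 61.9%. The 7 without a call on any array were Krt7, Cldn4, Cldn6, Marveld2, Dsg2, Ap1m2 and Krt15, with signals between 8.8 and 22.9. The number called was 22 in young WT, 23 in old WT and 25 in p16-/-. Over all spots the share called was 57.4%, 61.6% and 58.4%, and the share of all genes on each single array is not given here. The 3 counts are therefore not read as a difference between arrays. Only 9 members reached a signal of 1000 on any array, and these were Krt8, Krt18, Krt19, Spint2, Krt14, Krtdap, Trp63, Dsp and Pkp3.

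**Figure D1:**
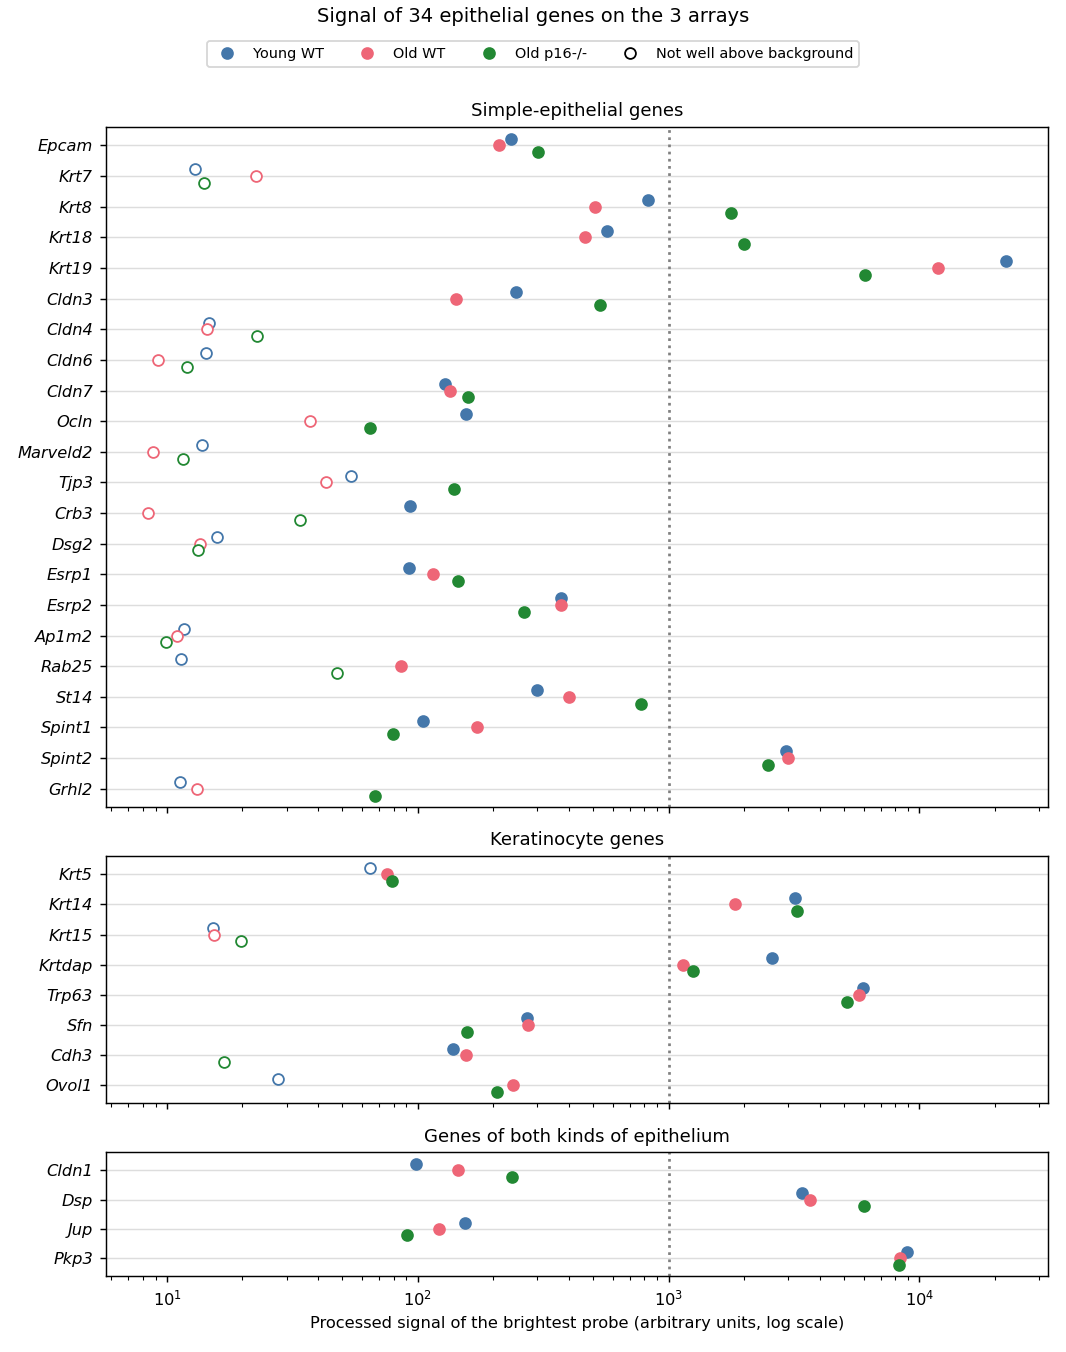
Processed signal (arbitrary units, log scale) of the brightest probe of each of 34 epithelial genes with 1 point for each of the 3 arrays (young WT, old WT, old p16-/-), with open points where that probe was not well above background and a dotted line at 1000. Krt8, Krt18 and Cldn3 were brightest on old p16-/-, whereas Krt19 was brightest on young WT (22048) and dimmest on old p16-/- (6053).

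Measurement error was read from 399 probes that are spotted 10 times on each array. The median SD of log2 signal over such spots was 0.045 to 0.046 at a signal of 1000 or more, 0.067 to 0.078 between 300 and 1000, and 0.11 to 0.12 below 300. The ± given with a log2 ratio below combines these values for the 2 arrays and covers spotting and scanning only, not differences between cultures. A single spot can also mislead. Where most of a probe's 10 spots were not called, 4.75% of spots in young WT, 6.28% in old WT and 5.25% in p16-/- were called all the same, the brightest at 694, 794 and 870. These figures include spots with an outlier flag, which were left out of the member values. All members but Dsp rest on a probe spotted once.

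Between old p16-/- and old WT, Krt18, Cldn3 and Krt8 were 3.5 to 4.3 times as bright on the p16-/- array, and the tight junction scaffold gene Tjp3 was higher by a bound. The cadherin gene Cdh3 was lower by a bound. Spint1 was lower by its brightest probe and higher by its second. A bound is given where 1 of the 2 arrays was not above background: the bright level is then set against the higher of the dim level and the lowest level called on that array. It is not a strict lower limit. On young WT, for example, the uncalled Krt5 probe (65) lay above the lowest called signal (55.4). In all, 27 of 34 members were above background on at least 1 of these 2 arrays. At least 2-fold higher were 4 of the 27 (14.8%), and 5.85% of all genes counted the same way were. At least 2-fold lower were 2 (7.41%), Cdh3 and Spint1 by its brightest probe, against 6.63% of all genes. With the mean over probes Spint1 was at -0.28 and 1 member was lower. With a signal of 1000 or more on the brighter array, 2 of 9 members were higher, Krt8 and Krt18, and 0 were lower, against 2.65% and 4.23% of all such genes. Krt8 and Krt18 passed this filter only through the p16-/- array, where they were high, so the stricter count is not separate evidence for them.

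The 4 higher members were all simple-epithelial, where they made up 4 of 16 counted genes, with a median log2 ratio of 0.41 over the 16. Of the 7 counted keratinocyte genes 0 were 2-fold higher and 1 was lower, with a median of -0.17. The 4 genes of both kinds had a median of 0.34 and 0 were 2-fold apart. Over all genes the median was 0.02. The difference between the classes was not tested, since genes of 1 array pair are not replicates.

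Among the keratins, Krt18 had 566 in young WT, 464 in old WT and 1990.3 in p16-/-. Its partner Krt8 had 824, 509.7 and 1777. Both were lowest on old WT and highest on p16-/-. The log2 ratio of p16-/- over old WT was 2.09 ± 0.087 for Krt18 and 1.79 ± 0.087 for Krt8, and over young WT it was 1.87 ± 0.090 and 1.16 ± 0.090. Each of these 4 values stayed at least 2-fold under all 11 alternative settings. For these genes, with 1 probe called on every array, only the changes of background correction, scaling and outlier spots could alter the value.

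Krt19, a keratin of simple epithelia and of the hair follicle, ran the other way, with 22048 in young WT, 11803.5 in old WT and 6053 in p16-/-. In log2 units old WT stood at -0.84 ± 0.065 from young WT and p16-/- at -0.97 ± 0.065 from old WT, which adds up to -1.81 ± 0.065 between p16-/- and young WT. Krt19 and Krt18 can both pair with Krt8, and they had opposite orders of the old arrays. Krt7, a keratin of ducts and glands, was not called on any array.

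Krt14, the keratin of basal keratinocytes, had 3189 in young WT, 1832 in old WT and 3239 in p16-/-. It was lower on old WT than on young WT (-0.74 ± 0.065) and higher on p16-/- than on old WT (0.81 ± 0.065), while young WT and p16-/- lay close together (0.08 ± 0.065). Its partner Krt5 was not called on young WT (65) and was called on old WT (76) and p16-/- (79), with a second probe not called anywhere. Krt15, a keratin of basal cells and the hair follicle bulge, was not called.

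**Figure D2:**
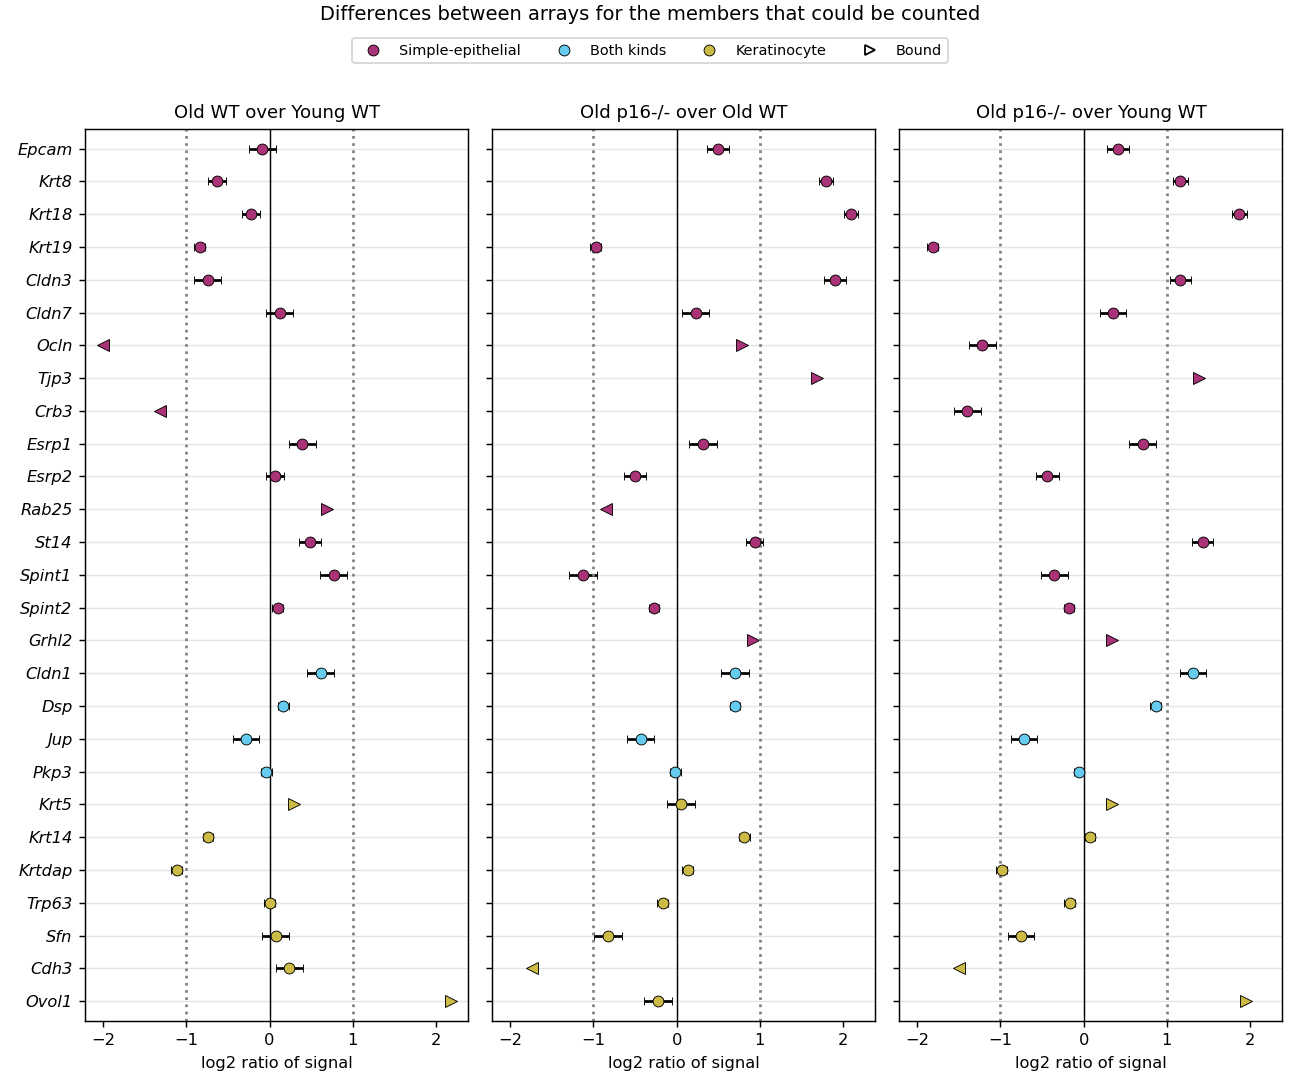
log2 ratio of signal for the 27 members that could be counted in at least 1 comparison, in 3 panels: old WT over young WT, old p16-/- over old WT and old p16-/- over young WT. Bars are the SD expected from replicate spots, triangles are bounds pointing away from 0, and dotted lines mark 2-fold; Krt8, Krt18 and Cldn3 lie beyond 1 in both panels of old p16-/-, and Krt19 lies at -1.81 against young WT.

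Among the tight junction genes, the claudin gene Cldn3 had 247 in young WT, 141 in old WT and 532 in p16-/-, the same order of arrays as both keratins. Its log2 ratio was 1.90 ± 0.14 for p16-/- over old WT and 1.16 ± 0.13 over young WT (0.98 with normexp, another background correction). Cldn4, which lies next to Cldn3 in the RefSeq table with no gene between them, was not called by either of its 2 probes. Cldn6, a claudin of early embryonic epithelium, was not called either.

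Cldn7 differed by less than 0.4 between any 2 arrays, with signals of 129, 134 and 158. Cldn1, the main claudin of the epidermis and present in simple epithelia as well, had 98.8 in young WT, 145 in old WT and 237 in p16-/-. It was higher at each step, and p16-/- exceeded young WT by 1.32 ± 0.16 (0.80 with normexp).

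Tjp3, which anchors junction proteins to actin, was called on p16-/- alone (139). It was higher there by bounds of 1.69 log2 units over old WT and 1.39 over young WT. With normexp these were 0.72 and 0.55, both under 2-fold. The membrane protein gene Ocln was called on young WT (156) and p16-/- (65) but not on old WT (37). It was lower on old WT than on young WT by a bound of 4.01-fold (log2 -0.94 with normexp and -0.43 with the mean over its probes). The p16-/- array stood at -1.21 ± 0.16 from young WT (-0.63 and -0.70). Its second probe was not called on any array.

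Crb3, an organiser of the apical surface, was called on young WT by its brightest probe (92.7) and on p16-/- by its other probe alone (54.7), so the probes do not give a common order of arrays. By the brightest probe old WT was lower than young WT by a bound of -1.32 (-0.87 with normexp and at 0 with the mean over its probes). Marveld2, which closes the corners where 3 cells meet, was not called. All tight junction values rest on signals under 1000, the range in which a dim probe can be called by a single spot.

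Among the adhesion and desmosome genes, Dsp, which links desmosomes to keratin filaments, had 3415 in young WT, 3669.8 in old WT and 5997 in p16-/-. Its probe is spotted 10 times, and its spots ranged from 3192 to 3603, from 3477 to 3817 and from 5736 to 6220. These ranges give the measurement error within 1 array each and not the spread between cultures. Its log2 ratio was 0.70 ± 0.065 for p16-/- over old WT and 0.87 ± 0.065 over young WT. A second probe gave 0.72 for p16-/- over old WT.

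The desmosomal plaque gene Pkp3 was even across the arrays, with 8940, 8327 and 8287 and log2 ratios from -0.06 to -0.01. Jup, the plaque protein shared by desmosomes and adherens junctions, had 155, 122 and 91 and was lower on p16-/- than on young WT by -0.71 ± 0.16. The desmosomal cadherin gene Dsg2 was not called by either probe.

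Epcam, a surface adhesion protein of simple epithelia and of pluripotent cells, had 234 in young WT, 212 in old WT and 301 in p16-/-. The highest value was on p16-/-, at 0.50 ± 0.14 over old WT and 0.41 ± 0.13 over young WT, well under 2-fold. Cdh3, the P-cadherin of basal keratinocytes and hair follicles, had 138 and 155 on the WT arrays and was not called on p16-/- (16.8). It was lower there than on old WT by a bound of -1.73 and than on young WT by -1.50 (-0.95 with normexp).

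The membrane protease gene St14 (matriptase) had 298 in young WT, 402 in old WT and 773 in p16-/-. It was highest on p16-/-, at 0.94 ± 0.099 over old WT and 1.43 ± 0.13 over young WT. Its inhibitors gave values that depended on the probe. For Spint1 the brightest probe had 105, 172 and 79.4 (p16-/- over old WT -1.12 ± 0.16, and -0.75 with normexp), and a second probe had 72.0, 106 and 157 (0.56). For Spint2 the brightest probe had 2927, 2997 and 2497 (-0.27 ± 0.065), and a second probe, annotated to another RefSeq transcript of the gene, had 306, 286 and 783 (1.45). The direction between the old arrays is therefore not settled for either inhibitor.

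The splicing regulator Esrp1 had 91.8 in young WT, 115 in old WT and 145 in p16-/- by its brightest probe. A second probe, annotated to the same transcript, ran the other way, with 198, 25.8 and 38.6, and was called on young WT alone. It gave bounds of -2.41 for old WT and -2.02 for p16-/- against young WT, so the direction against young WT is not settled for Esrp1. Esrp2 had 372, 373 and 265 and was lower on p16-/- than on old WT by -0.50 ± 0.14. No 2-fold difference was measured for either by the brightest probe. Of the genes for sorting proteins within epithelial cells, Ap1m2 was not called and Rab25 was called on old WT alone (85.4), with bounds under 2-fold.

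Among the transcription factors, Trp63, the master regulator of the epidermis, had 5963 in young WT, 5725 in old WT and 5124 in p16-/- by its brightest probe, with log2 ratios between -0.17 and 0.00. A second probe, annotated to another RefSeq transcript of the gene, was not called on young WT (13.5), was at 65.0 on old WT and was at 155 on p16-/- (1.24 over old WT), so the probes of Trp63 differed. Grhl2, an activator of junction genes in simple epithelia, was called on p16-/- alone at 67.5, with bounds under 2-fold and a second probe not called. Ovol1, which represses mesenchymal genes, was not called on young WT (27.7) and was at 240.1 on old WT and 207 on p16-/-. It was higher than young WT by bounds of 2.18 on old WT and 1.95 on p16-/-.

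Of the remaining keratinocyte genes, Krtdap, a secreted protein of differentiating keratinocytes, had 2576 in young WT, 1138 in old WT and 1253.5 in p16-/-. Both old arrays were lower, at -1.12 ± 0.065 and -0.98 ± 0.065, and differed from each other by 0.13 ± 0.065. Sfn, a cell cycle regulator of keratinocytes, had 273, 276 and 156, lower on p16-/- than on old WT by -0.82 ± 0.16.

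Between old WT and young WT few members stood 2-fold apart. Of 25 counted members 1 was at least 2-fold higher (4%, against 2.94% of all genes), Ovol1, by a bound. At least 2-fold lower were 3 (12.0%, against 3.16%): Krtdap, and Ocln and Crb3 by bounds. With a signal of 1000 or more, 0 of 7 members were higher and 1, Krtdap, was lower, against 1.18% and 0.562% of all genes. The medians were -0.01 over 14 simple-epithelial genes and 0.08 over 7 keratinocyte genes, against 0.00 over all genes. Of the 25 members, 14 lay above 0 and 11 below, against 6936 and 7233 of 14546 genes. Below 2-fold, Krt19, Cldn3 (-0.74 ± 0.16), Krt14 and Krt8 (-0.63 ± 0.11) were among the dimmer on old WT. Spint1 (0.77 ± 0.16), Cldn1 (0.62 ± 0.16) and St14 (0.49 ± 0.13) were among the brighter.

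The comparison of old p16-/- with young WT reuses arrays of the earlier ones and spans a difference in both age and genotype. Of 26 counted members 7 were at least 2-fold higher (26.9%, against 6.34% of all genes), namely Krt18, Krt8, Cldn3, St14, Cldn1, and Tjp3 and Ovol1 by bounds. At least 2-fold lower were 4 (15.4%, against 6.97%): Krt19, Ocln, Crb3 and Cdh3. Crb3 was counted at -1.39, but the probe behind that value was not above background on p16-/- (33.97). With a gene called by its brightest probe alone, Crb3 is a bound of -0.93 and 3 members were lower. With a signal of 1000 or more, 2 of 9 were higher and 1 was lower, against 3.42% and 4.20% of all genes. The 2 higher, Krt8 and Krt18, again passed only through the p16-/- array. The medians were 0.35 over 15 simple-epithelial and -0.16 over 7 keratinocyte genes, and 0.03 over all genes.

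**Figure D3:**
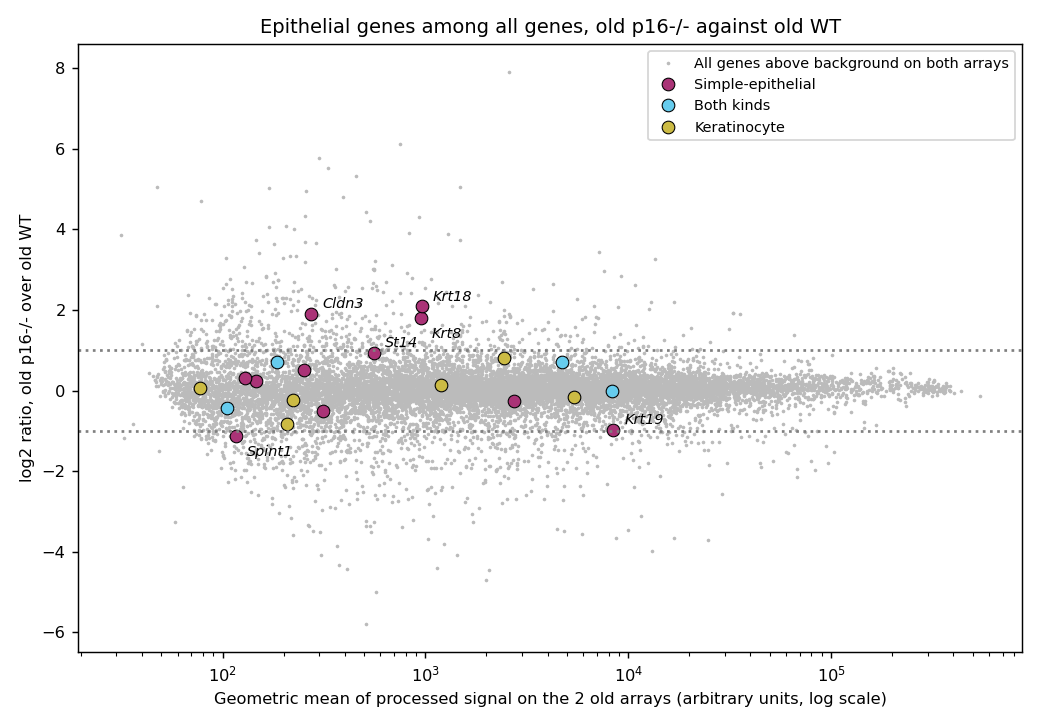
log2 ratio of old p16-/- over old WT against the geometric mean of processed signal on those arrays (log scale), with all genes above background on both in grey and the members in colour by class; dotted lines mark 2-fold. Krt18 (2.09), Cldn3 (1.90) and Krt8 (1.79) stand above the upper line, Spint1 (-1.12) lies below the lower line, and Krt19 (-0.97) lies just inside it.

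Other genes of junctions and epithelia were taken from lists, and those below a signal of 1000 are named after their values were seen. Of 37 other junction and polarity genes, 28 were counted between old p16-/- and old WT, 5 were at least 2-fold higher (17.9%) and 1 was lower (3.57%), with a median of 0.15. The shares over all genes in this comparison were 5.85% and 6.63%, as given above. With signals of 1000 or more these were Perp, a desmosome protein (2.61-fold; 40631 on old WT and 106515 on p16-/-), Evpl, which lies at the desmosome plaque (3.28-fold; 1273 and 4194), and Cldn11, a claudin of myelin and testis (5.41-fold; 263 and 1433). Below 1000, Lsr, a protein of tricellular junctions, was at 183 and 714, and Marveld3 was called on p16-/- alone at 332. The lower gene was Cldn23 (190 and 87.3). Cdh1, the E-cadherin gene that defines epithelia, had 162 in young WT, 173 in old WT and 88.3 in p16-/-, at -0.98 ± 0.16 between the old arrays.

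Other epithelial programme genes had a median of 0.29 over 13 counted, with 2 at least 2-fold higher (15.4%), Mal2 (1.13) and Myo5b by a bound, and 0 lower. Other keratin genes had a median of -0.29 over 11, with Krt17 higher (1.11 ± 0.14, from 151 to 326; 9.09% of the 11) and 0 lower. Against young WT, Krt20 (-1.11 ± 0.07) and Krt6a (-1.05 ± 0.08) were 2-fold lower on p16-/-, as Krt19 was, and Krt17 was 2-fold higher (1.04 ± 0.13). Of the 11, that is 18.2% lower and 9.09% higher, against 6.97% and 6.34% of all genes. Genes of keratinocyte differentiation and attachment had a median of 0.12 over 16, with 3 higher (18.8%), Tgm1 (1.21), Sprr1a (1.14) and Col17a1 by a bound, and 2 lower (12.5%), Lor (-1.26) and Ivl by a bound. The repressors Snai1, Snai2, Zeb1, Zeb2, Twist1 and Twist2 were called on all arrays. All 6 lay below 0 between p16-/- and old WT, from -0.74 for Twist2 to -0.14 for Zeb2, none 2-fold apart. Among all genes 6907 of 14691 lay below 0 in this comparison. For p16-/- over young WT all 6 again lay below 0, and Twist2 was 2-fold lower (-1.02). For old WT over young WT 4 of the 6 lay above 0.

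**Figure D4:**
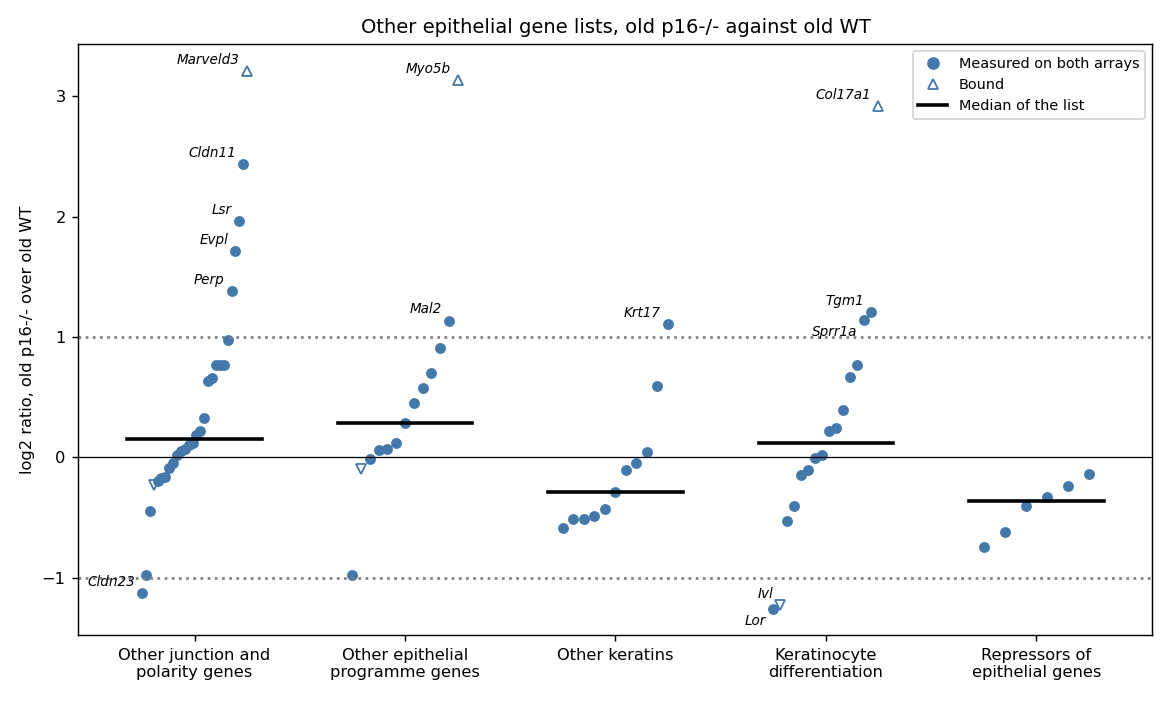
log2 ratio of old p16-/- over old WT for counted genes of 5 lists (other junction and polarity genes, other epithelial programme genes, other keratins, keratinocyte differentiation, repressors of epithelial genes), 1 point per gene, open triangles for bounds, black lines for list medians and dotted lines at 2-fold. Marveld3, Myo5b and Col17a1, all bounds, lie highest, and all 6 repressors lie between -0.74 and -0.14.

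Genes of other cells that carry keratins or that changed on the p16-/- array were read as well. Of 6 Merkel cell genes 3 were called on every array and Atoh1, Isl1 and Chga on none. The summed signal of the 6 was 9971 in young WT, 8418 in old WT and 4510 in p16-/-, nearly all from Krt20 and Syp. Of 7 mesothelial genes Msln and Bnc1 were called and the other 5, Wt1 and Upk3b among them, were not, with sums of 151451, 108939 and 147145, nearly all from Msln. Of 8 trophoblast genes 3 were called on each array, Cdx2, Elf5, Hand1 and Plac1 on none, and Tfap2c on p16-/- alone (90.7), with sums of 992, 857 and 983. Hair follicle genes were called for 5 of the 10 found on every array, with sums of 1935, 1896 and 1938. Endothelial genes were called for 3 or 4 of 7, with sums of 6593, 6595 and 6593, nearly all from Kdr (5830, 6041 and 6167). Tek was at 577, 365 and 242, 2.30-fold lower on p16-/- than on young WT. No other difference of a counted endothelial gene reached 2-fold.

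Macrophage genes fell into another pattern: 10 of 11 found were called on each WT array and 3 on p16-/-, and their summed signal was 23664, 6229 and 1877. Fibroblast genes summed to 1192270, 1138894 and 1030437. Between p16-/- and old WT, 2 of 13 were at least 2-fold higher (15.4%), Pdgfra (3.02-fold) and Fap (2.83-fold). Thy1 alone was lower (15.9-fold, 7.69% of the 13). The shares over all genes were 5.85% and 6.63%. Of 13 pluripotency genes 9, 9 and 10 were called, with a median of -0.09 between p16-/- and old WT over 10. At least 2-fold lower were Fgf4 (2201 on old WT and 579 on p16-/-) and Dppa5a, and higher were Fbxo15 and, by a bound, Sox2, while Nanog was at 264, 217 and 196. Of the 4 reprogramming factor genes, Pou5f1 (Oct4) was not called on any array (10.8, 7.1 and 9.3), and Sox2 was called on p16-/- alone (72.8). Klf4 was at 1434, 1708 and 1340. Myc was at 2456, 2387 and 1172, 2.05-fold lower on p16-/- than on old WT. Whether these probes read the delivered factors is not known here. Between the old arrays, the differences in macrophage, fibroblast and pluripotency genes occurred alongside the higher Krt8, Krt18 and Cldn3 on p16-/-, and their part in it was not tested. Across the 3 arrays the macrophage sum fell at each step, and Krt8, Krt18 and Cldn3 were lowest on old WT. The pluripotency genes had no common order. Nanog fell by little more than the spot error (-0.22 ± 0.16 and -0.16 ± 0.16). Alpl (1255, 1138 and 1931) and Fbxo15 (464, 144 and 362) were lowest on old WT, and Fgf4 was highest there. With 1 array per group, what these orders mean was not tested.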

How the data were processed

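RNA of 3 cultures was read on 1-colour Agilent arrays, 1 per group. The deposited scanner files hold spot intensity values made with Feature Extraction 11.5.1.1 from Cy3-labelled RNA, on probes designed on mm9, per the file headers. The processed signal used here is a linear intensity from that software, and the authors' background settings were not found in the file headers. The deposited series value table, whose making is not described by the labels, held the same linear intensities for 39030 of 39030 probes spotted once, within a relative tolerance of 0.0001. Its column medians were 137, 135 and 132, with no scaling or centring seen.

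Control spots (1377) and spots with an outlier flag (246, 246 and 267) were left out. Spots of 1 probe were averaged as log2 signal, from which the 75th percentile of all probes on that array was taken off. Accessions without version were matched to RefSeq (GRCm38.p6), which named 27508 of 39429 probes. The brightest probe (mean over arrays) stood for a gene, and a gene was called if any probe was well above background. Ratios were tested on simulated data. Python 3.11.15, numpy 2.4.6, pandas 2.3.3 and limma 3.58.1 (normexp) were used. Members, lists and alternatives were chosen with earlier results of these data known; all 34 members are named, and from other lists up to 4 genes at least 2-fold apart at a signal of 1000 or more, others after their values were seen. Of the listed genes, Flg, Krt71, Krt85 and Cd68 were not matched. Alternatives changed the background correction, scaling, filter, probe choice, outlier spots and source; normexp used median signals in place of mean signals.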

Additional observations from a re-analysis of the deposited data

How the results depend on the processing

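Of 747 recomputed values of single members, 670 moved by no more than the spot SD, 76 by more, and 1 that was past 2-fold (Crb3) changed sign. Of the 11 alternatives, 10 were planned and 1, calling a gene by its brightest probe alone, was added after the data were seen. Many of the 670 could not have moved. The mean over probes changes nothing for the 23 members with 1 probe. A brightness or background filter only keeps or drops a gene called on both arrays. The deposited table held the same intensities for probes spotted once. The differences past 2-fold of Krt8, Krt18, Krt19, Krtdap, St14 and Ovol1 stayed past it under every alternative that gave a value. So did those of Cldn3 (higher) and Cdh3 (lower, by a bound) for old p16-/- over old WT. In 11 of the 747 the sign changed, 9 of them with the mean over probes. There, old WT over young WT became -1.24 for Esrp1, old p16-/- over old WT became 0.59 for Spint2, 0.54 for Trp63 and -0.18 for Krt5, and old p16-/- over young WT became 0.42 for Crb3, -0.80 for Esrp1, 0.41 for Spint1, 0.62 for Spint2 and 1.70 for Trp63. The other 2 values were near 0, Epcam (0.024 with normexp) and Trp63 (-0.0031 with median scaling), both for old WT over young WT. Scaling moved the median of all genes by less than 0.05. Most members are dim, and the counts fell under a brightness filter, which leaves fewer genes.

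Members at least 2-fold higher on old WT than young WT numbered 1. They were 0 with both arrays above background or at a signal of 300 or 1000, and 2 with no filter or the mean over probes. Those lower numbered 3. They were 1 with normexp, both arrays above background, or at 300 or 1000, and 2 with the mean over probes. For old p16-/- over old WT, 4 were higher. They were 3 with normexp, both arrays above background or at 300, and 2 at 1000. With quantile normalization, another scaling, they were 5, and with no filter 6. Those lower numbered 2, and 1 with normexp, both arrays or the mean over probes, and 0 at 300 or 1000. For old p16-/- over young WT, 7 were higher, and 4 with normexp or at 300 and 2 at 1000. Those lower numbered 4, and 1 with normexp, at 300 or at 1000 and 2 with the mean over probes. Smaller changes of these counts, and of the medians that follow, are not listed. The simple-epithelial median for old WT over young WT was -0.01, and -0.37 at 1000. For old p16-/- over old WT it was 0.41, and 0.72 at 300 and 0.76 at 1000. For old p16-/- over young WT it was 0.35, and 0.79 at 300 and 0.49 at 1000. Against either WT array, Krt8 and Krt18 at 1000, and Epcam and Cldn3 at 300, entered only through p16-/-, where they were high. St14 did so at 300 against young WT. The keratinocyte median for old WT over young WT was 0.08, and 0.0033 with both arrays above background and -0.74 at 300 or 1000; for old p16-/- over old WT it was -0.17, and 0.13 at 300 or 1000; over young WT it was -0.16, and -0.46 with both arrays, -0.044 with no filter and 0.00 with the mean over probes. No paired analysis was possible because each group has 1 array, and for the same reason no replicate could be left out.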
